A study of Mus musculus with 4 samples.

Results

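Basophils, mast cells and eosinophils are granulocytes that store preformed mediators in granules, and 10 genes typical of them were followed in an acute myeloid leukaemia of the mouse. The 10 genes, of 23235 in the deposited tables, were chosen by name with earlier results of the same libraries known. They were the proteases Mcpt8 and Prss34, the carboxypeptidase Cpa3, the IgE receptor subunits Ms4a2 and Fcer1a, and the histamine enzyme Hdc. The others were the eosinophil granule proteins Prg2 and Epx and the ribonucleases Ear2 and Ear11. FPKM of the 10 genes with NRASG12V on and off were part of that choice, so every change given here for them is a description with no test. The label granule genes is loose, because Ms4a2 and Fcer1a encode membrane proteins and Hdc a cytosolic enzyme.

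The leukaemia carried mutant NRAS (NRASG12V), a Ras protein locked in its active state, together with the Mll-AF9 fusion, and all 4 libraries share that genotype. NRASG12V was switched off for 48 h, 72 h or 96 h with doxycycline, given as an injection and then in drinking water, in 3 of the libraries, and it was on in 1 library. Per the labels, the hosts were SCID/Beige mice that had received leukaemia cells through the tail vein and carried overt disease after 20 days, with more than 100000 white blood cells per microlitre. The SCID mutation removes T and B cells, and the beige mutation hits Lyst, a gene for granule size, but such hosts keep basophils, mast cells and eosinophils of their own. RNA from host cells and from leukaemia cells is not separated in these bulk libraries. The doxycycline text stands on all 4 samples in the labels, the on sample included. Those labels do not give the tissue, the age of the mice, the number of mice behind a library, the promoter that drives NRASG12V or the time at which the on library was taken. Whether the on library had received the drug is thus not settled by the labels. No sample is labelled as a drug control, so the drug, elapsed time and the switch cannot be told apart. With 1 library in each group there is no replicate error anywhere, and FPKM (fragments scaled to transcript length and to all mapped fragments) carry no counting intervals because total depth is unknown. Among the 4 libraries, 11242 to 11490 genes reached 1 FPKM.

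Basophils and mast cells bind IgE through a receptor made of an alpha chain (Fcer1a), a beta chain (Ms4a2) and a shared gamma chain, and release histamine and proteases when IgE is cross-linked. In the mouse, Mcpt8 and Prss34 are proteases typical of basophils, whereas Cpa3 is stored by mast cells and also found in basophils and their progenitors. Eosinophil granules hold major basic protein (Prg2), a peroxidase (Epx) and ribonucleases of the Ear family, which has expanded in rodents. GATA factors and C/EBP factors together direct the choice between these lineages.

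The sequences of the Ear family come first, because they set how far each Ear value can be trusted. The first 120 coding bases of 4 family members, read from GENCODE release M21 transcripts on mouse chromosome 14, are shown with capitals at each base that differs from Ear2 in a pairwise alignment.
Ear2: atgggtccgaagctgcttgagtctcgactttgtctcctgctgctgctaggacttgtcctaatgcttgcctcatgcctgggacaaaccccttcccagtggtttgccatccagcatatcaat
Ear1: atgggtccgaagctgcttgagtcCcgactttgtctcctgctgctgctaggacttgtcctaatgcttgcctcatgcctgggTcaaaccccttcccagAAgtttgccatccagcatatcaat
Ear6: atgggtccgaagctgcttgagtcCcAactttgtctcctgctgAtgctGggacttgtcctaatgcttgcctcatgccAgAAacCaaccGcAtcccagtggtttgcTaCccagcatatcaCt
Ear11: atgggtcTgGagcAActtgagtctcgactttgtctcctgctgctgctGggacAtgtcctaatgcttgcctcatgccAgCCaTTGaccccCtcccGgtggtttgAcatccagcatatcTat
Ear1 differed from Ear2 at 4 of these bases, Ear6 at 13 and Ear11, which the RefSeq table now names Rnase2a, at 16. Over the whole coding sequence, Ear2 was 97.0% identical to Ear10, 95.1% to Ear1, 87.7% to Ear6 and 79.8% to Ear11. Of all windows of 36 bases in the coding sequence of Ear2, 55.5% occurred unchanged in a transcript of another annotated gene, first of all Ear10. For Ear11 that share was 3.23%. The other 8 genes shared no such window with any annotated transcript of another gene. Ear2 values are therefore uncertain, because the counting could split its reads among copies. Ear11 was mostly distinct at this window length, and no read length is named by the sources used here.

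The 10 genes did not move together. Mcpt8, Prss34 and Ear11 were at least 2-fold lower at all 3 times, and Ms4a2 at 72 h and 96 h. Prg2, Epx and Ear2 were within 2-fold of the on library at 48 h and 72 h and at least 2-fold higher at 96 h. Hdc was at least 2-fold higher at 48 h alone, and Cpa3 stayed within 2-fold throughout. Fcer1a also counted as within 2-fold, but it was under 1 FPKM in every library. On the scale used here such a gene cannot pass 2-fold, so nothing is read from that. Changes are log2((off FPKM + 1)/(on FPKM + 1)) within each deposited table, a scale that compresses changes of genes near 0, and levels are FPKM brought to the scale of the 48 h table.

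At 48 h, 3 of the 10 genes were at least 2-fold lower and 1 was higher, beside 4.85% lower and 5% higher among the 11739 genes that reached 1 FPKM in either library. At 72 h, 4 were lower and 0 higher, beside 5.76% and 6.61% of 11746 genes. At 96 h, 4 were lower and 3 higher, beside 8.16% and 7.39% of 11729 genes. For genes at 5 FPKM or more on and off, the median change was -0.20, -0.14 and -0.10 at the 3 times. With that median set to 0, the counts over all measured genes were 899 higher and 335 lower at 48 h (587 and 569 before), 1007 and 455 at 72 h (776 and 676 before), and 1048 and 757 at 96 h (867 and 957 before). The members' counts then stayed as above except for 3 lower at 96 h, where Ms4a2 no longer passed. Since the choice of the genes used these contrasts, nothing is read from the member counts. Their median change was -0.21, -0.08 and 0.03 at 48 h, 72 h and 96 h, against -0.14, -0.07 and -0.06 for all measured genes, and it hides members that lay on opposite sides. Fcer1a did not reach 1 FPKM in any library, and the other 9 did.

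**Figure D1:**
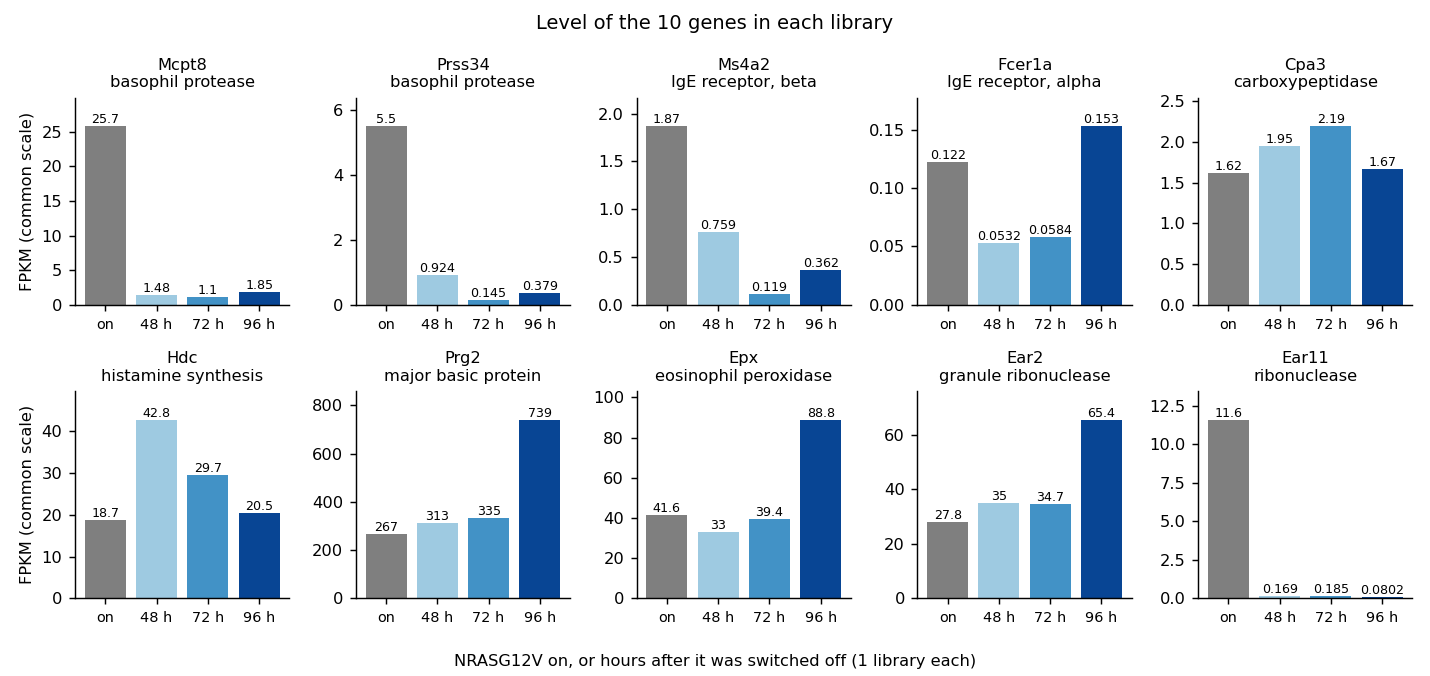
Level of each of the 10 genes in FPKM (vertical axis, from 0, a separate scale for each gene) in the on library and in the libraries taken 48 h, 72 h and 96 h after NRASG12V was switched off; each bar is 1 library and has no error. Mcpt8, Prss34 and Ear11 are highest in the on library, and Prg2, Epx and Ear2 in the 96 h library.

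Mcpt8, a serine protease that marks mouse basophils, measured 25.7 FPKM with NRASG12V on, then 1.48, 1.10 and 1.85 FPKM after 48 h, 72 h and 96 h off. The off libraries were all lower and close to one another. The log2 changes were -3.43, -3.64 and -3.20, and 0.128%, 0.0936% and 0.230% of the measured genes had a lower value at these times. Their mean was -3.42 ± 0.22 (SD over the 3 times, a spread over times and not a replicate error). Prss34, a tryptase-like protease of basophils, had 5.50 FPKM on and 0.924, 0.145 and 0.379 FPKM off at the same times. Again the on library was the highest, and the log2 changes were -1.76, -2.45 and -2.19. Ms4a2, the beta chain that amplifies IgE receptor signals, was low throughout, at 1.87 FPKM on and at 0.759, 0.119 and 0.362 FPKM off. Its log2 changes of -0.70, -1.32 and -1.04 passed 2-fold at 72 h and 96 h. Of the IgE-binding alpha chain, Fcer1a, hardly any RNA was measured, with 0.122 FPKM on and 0.0532, 0.0584 and 0.153 FPKM off. A receptor of the usual composition needs this chain, and its RNA was the lowest of the 10 genes in the on library. At least 2-fold lower values at all 3 times were found for 3.52% of the 11965 genes that reached 1 FPKM in any library.

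Other genes typical of basophils were mixed. Of 12 such genes, 7 reached 1 FPKM at 48 h in either library, and 2 of them were at least 2-fold lower and 0 higher, with the same counts at 72 h and 96 h. These were Il3ra, the specific chain of the receptor for interleukin 3, the main basophil growth factor, and the early activation antigen Cd69. The share lower among all measured genes was 4.85%, 5.76% and 8.16% at the 3 times. Il3ra measured 11.8 FPKM on and 3.56, 2.58 and 2.51 FPKM off, and Cd69 5.01 FPKM on and 1.28, 1.49 and 1.64 FPKM off. Cd69 is carried by many activated leukocytes, and Il3ra by other myeloid progenitors. Cd200r3, a surface receptor of basophils and mast cells chosen here for that role after its values were seen, had 0.474 FPKM on and 0.0832, 0.0827 and 0.0672 FPKM off. Cyp11a1, Il6 and Il4 also stayed under 1 FPKM, with 0.501, 0.915 and 0.466 FPKM on. In the off libraries Cyp11a1 lay at 0.0582 to 0.224 FPKM and Il6 at 0.143 to 0.164 FPKM, and Il4 was listed at 0. On the other side, Osm, Ifitm1, Hgf and L1cam were above the on library at 48 h and 72 h, with log2 changes under 1. Osm measured 2.75 FPKM on and 6.28, 4.01 and 3.72 FPKM off, and Ifitm1 14.5 FPKM on and 18.3, 17.9 and 13.8 FPKM off. Like Cyp11a1, Il6 and Il4, they were named after their values were seen. The median change of the 7 genes was 0.27, 0.18 and -0.09 at the 3 times, whereas over all 12 genes with no filter on low values it was -0.27, -0.18 and -0.36, so its sign at 48 h and 72 h turned on that filter. In bulk RNA, fewer cells of a type and less RNA per cell cannot be told apart.

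The basophil markers fixed for the cell type check (Mcpt8, Prss34, Cd200r3, Fcer1a, Ms4a2 and Il3ra) summed to 45.5 FPKM on, with Mcpt8 the main share, and to 6.85, 4.09 and 5.32 FPKM in the 3 off libraries by time. Of these markers, 4 are among the 10 genes and repeat the values above, and the other 2, Cd200r3 and Il3ra, summed to 12.3 FPKM on and to 3.64, 2.66 and 2.57 FPKM off. Of the 6 markers, 4 reached 1 FPKM in the on library and 2 in each off library. One group of genes of myeloid precursors moved the same way: the primary granule genes of neutrophils summed to 5900 FPKM on and to 3100, 2614 and 1888 FPKM off. Lyz2, lysozyme, the one gene of that list that stayed within 2-fold, made up most of the off sums, at 1771 FPKM on and 2389, 2000 and 1356 FPKM off. Without it the sums were 4129 FPKM on and 710, 613 and 532 FPKM off. Of that list's 10 genes, 9 were at least 2-fold lower at each time, and its median changes were -2.73, -2.76 and -3.10. Over all measured genes, 4.85%, 5.76% and 8.16% were lower. The secondary and later granule genes of neutrophils did not move this way. Of 11, 4, 4 and 3 were at least 2-fold higher at the 3 times, beside 5%, 6.61% and 7.39% of all measured genes. At the same times 0, 0 and 1 were lower, and the median changes were 0.73, 0.70 and 0.20. The part of myeloid precursors in the basophil values was not tested.

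Ear11 encodes a ribonuclease of the Ear family. It measured 11.6 FPKM on and 0.169, 0.185 and 0.0802 FPKM after 48 h, 72 h and 96 h off. Every off library lay far below the on library. The log2 changes were -3.43, -3.35 and -3.48, with a mean of -3.42 ± 0.06 (SD over the 3 times). Ear5, the closest to Ear11 in coding sequence of the 6 family members compared (83.8% identity), was listed at 0.347 FPKM on and at 0 in all 3 off libraries, and was singled out after its values were seen.

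Prg2, Epx and Ear2 were highest at 96 h, unlike Ear11. Prg2, major basic protein, was the most abundant of the 10 genes in every library, with 267 FPKM on, then 313, 335 and 739 FPKM as time passed. The 96 h library stood well above the other 3, with a log2 change of 1.47 after changes of 0.23 and 0.33. Epx, the peroxidase that makes hypobromous acid, measured 41.6 FPKM on and 33.0, 39.4 and 88.8 FPKM off. Here the 48 h and 72 h libraries were below the on library and the 96 h library above it, with log2 changes of -0.32, -0.08 and 1.07. Ear2 had 27.8 FPKM on and 35.0, 34.7 and 65.4 FPKM off, with log2 changes of 0.32, 0.31 and 1.20. Within the off libraries, the log2 change at 96 h against 48 h was 1.24 for Prg2, 1.40 for Epx and 0.88 for Ear2, on a scale set through the on column. The pattern of less than 2-fold change at 48 h and 72 h with at least 2-fold higher at 96 h was found for 1.56% of 11965 genes. Because Prg2, Epx and Ear2 were picked with these values in view, that share is background and not a test.

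Of 14 further rows for eosinophil genes, 8 reached 1 FPKM at each time. Among these 8, 1 was at least 2-fold higher at 48 h, 3 at 72 h and 5 at 96 h, and 1 was lower at each time. Shares over all measured genes were 5%, 6.61% and 7.39% higher and 4.85%, 5.76% and 8.16% lower. The median change of the 8 was 0.05, 0.14 and 1.33, against -0.14, -0.07 and -0.06 for all measured genes. Over all 14 rows with no filter on low values, 3 of them listed at 0 in every library, the median at 96 h was 0.07. The 5 higher at 96 h were Ccr3, Prg3, Ear1, Ear6 and Alox15; beyond Ccr3 they were chosen for naming after their values were seen. Ccr3, the eotaxin receptor that guides eosinophils and is also found on basophils, was the one gene of the list at least 2-fold higher at all 3 times, with 1.07 FPKM on and 7.18, 7.64 and 8.91 FPKM off. Across all genes, 3.64% of 11965 were at least 2-fold higher at all 3 times. Prg3, a relative of major basic protein, measured 16.6 FPKM on and 17.8, 17.0 and 49.6 FPKM off. Alox15, a lipoxygenase abundant in eosinophils, had 2.62 FPKM on and 2.62, 3.29 and 7.04 FPKM off. Both were near the on library until 72 h and above it at 96 h. Ear6 was at 20.5 FPKM on and at 35.97, 43.4 and 97.3 FPKM off, with 3.002% of its coding windows shared with other genes. Ear1 was at 10.8 FPKM on and at 16.9, 28.8 and 58.9 FPKM off, but 73.4% of its windows were shared, so its value is uncertain like that of Ear2. The lower gene was Ear7 at 48 h, listed at 0 there against 7.23 FPKM on, and the adenosine receptor gene Adora3 at 72 h and 96 h. An exact 0 may be a failed estimate here, and Ear7 was listed at 4.58 and 6.41 FPKM at 72 h and 96 h.

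In contrast to Ccr3, 2 other surface receptors of eosinophils, Il5ra and Siglec5, did not pass 2-fold. For Il5ra this was fixed in advance, because it was under 1 FPKM in every library. Il5ra, the specific chain of the receptor for interleukin 5, measured 0.177 FPKM on and 0.140, 0.155 and 0.176 FPKM off. Siglec5, the older symbol of the eosinophil lectin Siglecf, measured 1.71 FPKM on and 1.74, 1.37 and 1.98 FPKM off. The 6 eosinophil markers of the cell type check (Epx, Prg2, Prg3, Siglec5, Il5ra and Ccr3) summed to 328 FPKM on and to 373, 400 and 888 FPKM off. Prg2 and Epx, which are among the 10 genes, made up most of these sums and repeat the values above. The other 4 markers summed to 19.6 FPKM on and to 26.9, 26.2 and 60.6 FPKM off. The erythroid markers, which moved with these libraries too, summed to 7725 FPKM on and to 24111, 36152 and 38991 FPKM off. Genes common to leukocytes summed to 4999 FPKM on and to 3576, 2821 and 2171 FPKM off. The part of these shifts in the eosinophil values was not tested.

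**Figure D2:**
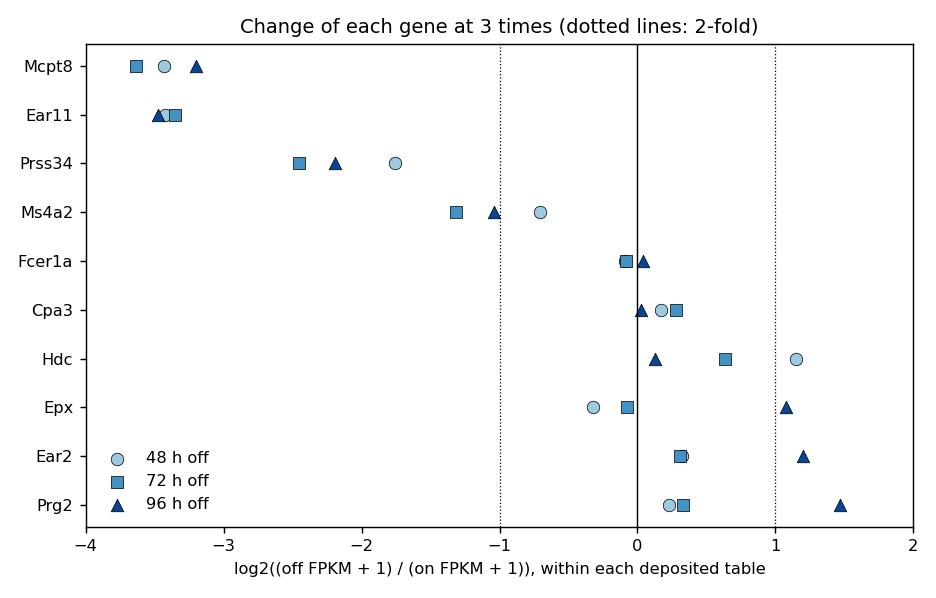
Log2 change of each of the 10 genes (horizontal axis, log2 of off FPKM + 1 over on FPKM + 1) at 48 h (circles), 72 h (squares) and 96 h (triangles); dotted lines mark 2-fold, and each point is 1 off library against the on library. Mcpt8 and Ear11 lie between -3.64 and -3.20, and Prg2, Ear2 and Epx pass the right-hand line at 96 h.

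Hdc, which makes histamine from histidine, measured 18.7 FPKM on, then 42.8, 29.7 and 20.5 FPKM off in order of time. It was highest at 48 h and close to the on library at 96 h, with log2 changes of 1.15, 0.64 and 0.12. As background, Hdc is also made by neutrophils and their precursors; their part in its values was not tested. Cpa3 measured 1.62 FPKM on and 1.95, 2.19 and 1.67 FPKM off, with log2 changes of 0.17, 0.28 and 0.03.

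Mast cell proteases were scarce. The chymases Cma1 and Mcpt4 had 1.04 and 1.27 FPKM on, and Cma1 had 2.32, 2.27 and 1.98 FPKM off. The tryptase Tpsb2 measured 0.914 FPKM on and 2.59, 3.23 and 2.34 FPKM off, and Mrgprb2, the mast cell receptor for basic peptides, was listed at 0 on, at 48 h and at 72 h and at 0.0713 FPKM at 96 h. These genes were chosen for their role in the cell type check. The 7 mast cell markers of that check, Kit and Mitf included, summed to 15.1 FPKM on and to 20.6, 21.5 and 19.0 FPKM off. Mitf was at 1.38 FPKM on and at 0.969, 1.07 and 1.04 FPKM off. The 5 mast cell markers without Kit and Mitf, which other cells also make, summed to 3.85 FPKM on and to 8.71, 9.27 and 7.13 FPKM off. Of 14 further mast cell genes, 5 reached 1 FPKM at each time. Of them, 1, Tpsb2 at 72 h, passed 2-fold, and their median change was 0.70, 0.67 and 0.40. Over all measured genes, 6.61% were at least 2-fold higher at 72 h. The 5 were not the same genes throughout, because Tpsab1 counted at 48 h alone and Slc18a2 at 72 h and 96 h in its place. Over all 14 genes with no filter on low values the median was 0.10, 0.11 and 0.08. With a pseudocount of 0.1 FPKM, 3 were at least 2-fold higher at 48 h, 3 at 72 h and 1 at 96 h. Kit, the stem cell factor receptor, was flat at 9.88 FPKM on and 10.9, 11.1 and 10.9 FPKM off.

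**Figure D3:**
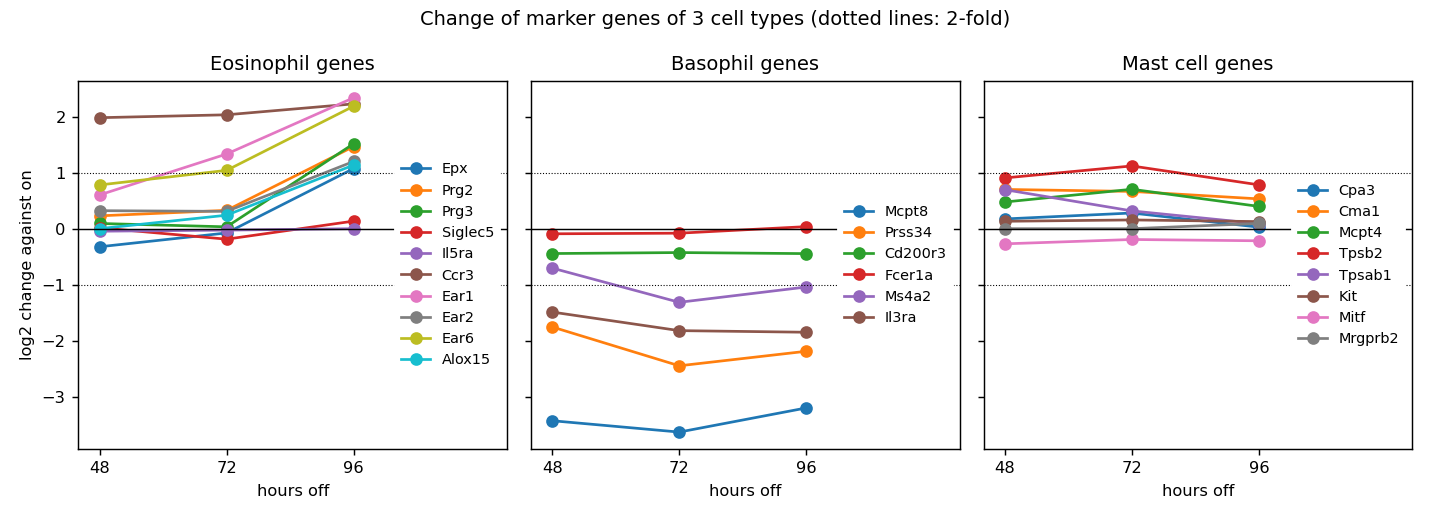
Log2 change against the on library (vertical axis) at 48 h, 72 h and 96 h off for marker genes of eosinophils, basophils and mast cells, with Ear1, Ear2, Ear6 and Alox15 added to the eosinophil panel and Cpa3 to the mast cell panel; each line is 1 gene and each point 1 library. The genes added to the eosinophil panel were picked with their values known, and Adora3, Ear5, Ear7 and Ear11 are not drawn. At 96 h Adora3 lay at -1.24 and Ear11 at -3.48. Most of the eosinophil lines drawn turn upward at 96 h, while Mcpt8 stays at or below -3.20 and Kit at 0.13 to 0.16.

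Of 14 IgE receptor signalling genes, 1 was at least 2-fold lower at 48 h, 1 at 72 h and 5 at 96 h, and 0 were higher at any time. Among all measured genes, 4.85%, 5.76% and 8.16% were lower at these times. The median change of the 14 was -0.48, -0.62 and -0.83. Lat2, an adaptor used downstream of the IgE receptor, was the one lower at all 3 times, at 72.0 FPKM on and 17.7, 15.3 and 11.2 FPKM off. The gamma chain Fcer1g, named for its place in the receptor, was abundant at 253 FPKM on and 234, 182 and 164 FPKM off. It also serves other Fc receptors. Among 12 growth factor and alarmin receptors that reached 1 FPKM, 2 were lower at 48 h and 3 at 72 h and at 96 h, and 2 were higher at each time. The share higher over all measured genes was 5%, 6.61% and 7.39%. The interleukin 4 receptor Il4ra measured 21.04 FPKM on and 8.70, 7.23 and 5.83 FPKM off, while Il1rl1, the interleukin 33 receptor of mast cells and basophils, measured 2.58 FPKM on and 6.83, 7.12 and 7.05 FPKM off.

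Transcription factors that direct these lineages lay on both sides of their on level. Of 16, 4 were at least 2-fold lower at 48 h, 5 at 72 h and 8 at 96 h, and 2 were higher at each time. Shares over all measured genes were 4.85%, 5.76% and 8.16% lower and 5%, 6.61% and 7.39% higher. Gata1, required for eosinophils as well as red cells and mast cells, measured 22.0 FPKM on and 65.4, 80.2 and 105 FPKM off, and its partner Zfpm1 at 28.4 FPKM on and 133, 133 and 169 FPKM off. Both are strong in red cell precursors. Cebpa, which early granulocytes need, was at 40.8 FPKM on and at 14.4, 10.5 and 7.76 FPKM off, and Cebpb at 61.2 FPKM on and 22.1, 15.3 and 12.5 FPKM off. Gata2, needed for basophils and mast cells and named for that role, had 7.75 FPKM on and 3.51, 3.41 and 2.89 FPKM off, and passed 2-fold at 96 h with a log2 change of -1.16.

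Of 18 packing and release genes, 2 were at least 2-fold lower at 48 h and 72 h and 4 at 96 h, and 0 were higher. The share lower among all measured genes was 4.85%, 5.76% and 8.16% at these times. Srgn, the proteoglycan serglycin that binds proteases inside granules, measured 339 FPKM on and 101, 89.4 and 76.7 FPKM off. Ctsc, which activates granule proteases, measured 80.7 FPKM on and 30.2, 27.9 and 18.9 FPKM off. Of the genes for histamine, serotonin and lipid mediators, 8 or 9 reached 1 FPKM. Of these, 0 were at least 2-fold lower at 48 h, 2 at 72 h and 3 at 96 h, with 0, 1 and 0 higher. The share higher over all measured genes was 5%, 6.61% and 7.39%. Slc18a2, which loads histamine into granules, was at 0.749 FPKM on and at 0.993, 1.49 and 1.11 FPKM off, highest at 72 h where Hdc was highest at 48 h, and it was chosen for its role.

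The order of the genes on the chromosome, taken from the RefSeq table of assembly GRCm38.p6 for names and order alone, gave 12 neighbours that lay within 3 annotated genes of one of the 10 and reached 5 FPKM. Mcpt8 lies 2 places from Ctsg, the neutrophil protease cathepsin G, on chromosome 14. Ctsg measured 391 FPKM on and 27.6, 33.7 and 27.4 FPKM off, with log2 changes of -3.77, -3.49 and -3.78 beside -3.43, -3.64 and -3.20 for Mcpt8. Ms4a2 lies next to Ms4a3, a gene of granulocyte precursors, which was at 192 FPKM on and at 26.2, 22.2 and 17.7 FPKM off. Another Ms4a gene, Ms4a6d, 2 places from Ms4a2, was at 16.6 FPKM on and at 5.55, 4.11 and 2.66 FPKM off. Prg2 lies 2 places from Prg3, and both were within 2-fold until 72 h and higher at 96 h. The solute carrier genes Slc43a3 and Slc43a1, 1 and 3 places from Prg2, differed from that pattern. Slc43a3 had log2 changes of 0.44, 0.85 and 1.13, and Slc43a1 of 1.87, 2.39 and 2.53, so it was higher from 48 h on. Epx lies 3 places from the related peroxidase gene Mpo of neutrophils, and this pair parted. Mpo measured 1025 FPKM on and 139, 137 and 124 FPKM off, with log2 changes of -2.88, -2.90 and -3.03, whereas Epx was at -0.32, -0.08 and 1.07. Within Mpo, 17.9% of the coding windows were shared with 1 other annotated gene, and within Epx 0. Gyg, Hltf and Hps3 beside Cpa3, and Gabpb1 beside Hdc, stayed within 2-fold at all 3 times.

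**Figure D4:**
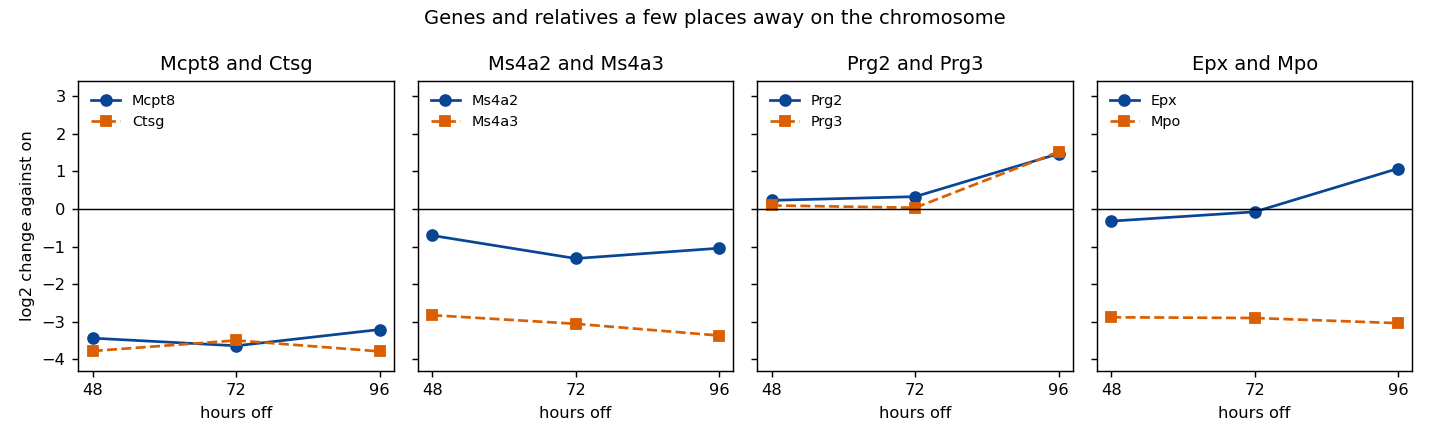
Log2 change against the on library (vertical axis) at 48 h, 72 h and 96 h off for 4 of the genes (solid lines, circles) and 1 neighbour each within 3 places on the chromosome, a related gene picked after the values were seen (dashed lines, squares); each point is 1 library. Mcpt8 and Ctsg lie between -3.78 and -3.20, Prg2 and Prg3 reach 1.47 and 1.52 at 96 h, and Epx and Mpo lie apart at every time.

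Likeness of pattern was measured as the distance between the 3 log2 changes of 2 genes, over the 4 libraries and among the 4407 genes that reached 20 FPKM in any library. Only genes outside the 10 were ranked, so a nearer gene among the 10 would not be named here. The genes nearest to Mcpt8 were Dmkn (distance 0.26), Prtn3 (0.62) and Ctsg (0.69), of which Prtn3 and Ctsg encode proteases of neutrophil primary granules. Nearest to Prg2 was Prg3 (0.33), followed by Spata24 (0.45) and Nudt19 (0.52). Nudt19 (0.29) and Spata24 (0.32) were also nearest to Ear2. For Epx the nearest were Rpl26 (0.32), Rpa3 (0.46) and Sec61g (0.49), and for Hdc Acvrl1 (0.23), S100a9 (0.25) and Pilrb1 (0.28).

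Promoter windows are shown for Ear11 and Ear2, related genes that parted, for 2 basophil genes that were lower together, and for Epx. The 250 bases before the start of 5 genes, from the RefSeq promoter table of build GRCm38.p6, are printed with capitals at each match to GATAA, the core that GATA factors bind, to TTNNGNAA, a core that C/EBP factors bind, or to GAGGAA, a core that PU.1 binds, on either strand.
Prss34, chr17:25298144-25298393, plus strand: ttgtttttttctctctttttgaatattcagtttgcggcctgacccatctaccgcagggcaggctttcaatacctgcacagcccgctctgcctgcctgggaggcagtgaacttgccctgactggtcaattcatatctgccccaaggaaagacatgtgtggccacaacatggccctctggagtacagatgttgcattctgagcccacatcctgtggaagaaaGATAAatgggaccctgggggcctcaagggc
Ms4a2, chr19:11623720-11623969, minus strand: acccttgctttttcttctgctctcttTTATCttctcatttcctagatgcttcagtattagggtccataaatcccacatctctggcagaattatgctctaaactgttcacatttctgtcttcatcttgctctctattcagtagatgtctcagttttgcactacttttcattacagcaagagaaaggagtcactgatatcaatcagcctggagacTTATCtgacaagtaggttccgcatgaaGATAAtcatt
Ear11, chr14:51256113-51256362, minus strand: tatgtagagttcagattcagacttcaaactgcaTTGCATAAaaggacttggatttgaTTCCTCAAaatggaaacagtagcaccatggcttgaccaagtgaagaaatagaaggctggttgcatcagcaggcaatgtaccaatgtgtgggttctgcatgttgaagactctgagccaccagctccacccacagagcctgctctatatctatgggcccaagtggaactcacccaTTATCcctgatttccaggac
Ear2, chr14:44102404-44102653, plus strand: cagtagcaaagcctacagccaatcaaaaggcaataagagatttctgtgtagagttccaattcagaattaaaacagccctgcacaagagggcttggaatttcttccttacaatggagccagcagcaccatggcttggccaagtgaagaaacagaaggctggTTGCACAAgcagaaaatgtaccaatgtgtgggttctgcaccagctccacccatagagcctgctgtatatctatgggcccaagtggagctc
Epx, chr11:87875537-87875786, minus strand: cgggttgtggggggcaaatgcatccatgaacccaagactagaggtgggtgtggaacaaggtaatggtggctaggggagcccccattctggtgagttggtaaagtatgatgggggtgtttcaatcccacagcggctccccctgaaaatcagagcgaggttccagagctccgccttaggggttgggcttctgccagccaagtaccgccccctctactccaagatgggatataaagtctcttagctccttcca
The windows of Ear2 and Ear11 could be aligned over 223 positions with 79.4% identity, and those of Ear2 and Ear1 over 248 positions with 99.2%. GATAA was found in 5 of the 9 genes with a window in the table, namely Prss34, Cpa3, Ms4a2, Fcer1a and Ear11, and in 22.6% of all 32851 windows. Ms4a2 held 3 matches, which start at -224, -37 and -10 from the start site, and Prss34 held 1 at -30. Epx, Ear2, Hdc and Mcpt8 held none, and of these Mcpt8 was lower at all 3 times. Cpa3, within 2-fold throughout, held 1, as did Fcer1a, whose values were too low to pass 2-fold. Prg3, which is not one of the 10 genes and was higher at 96 h, held 2, at -123 and -111. The 5 printed windows were picked after the values were seen, so no link between GATAA and direction is read from them. TTNNGNAA was found in 3 of the 9, Fcer1a, Ear2 and Ear11, and in 36.8% of all windows, and GAGGAA in 3 of the 9, Mcpt8, Fcer1a and Ear11, and in 23.3%. In Ear11, matches to TTNNGNAA and GAGGAA overlap at -193. The matches are descriptions of these letters and not of binding.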

How the data were processed

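RNA from 4 libraries was sequenced by the standard Illumina procedure, per the labels. FPKM values were deposited by the authors, whose tools included TopHat2 2.0.4 and Cuffdiff with build mm9, per the submitters' processing notes. Nothing was found in the sources used here on the Cuffdiff version, the annotation, strand or read length. In 3 tables the on library stands beside 1 off library, and another table holds a combined off value. For the on library the 0 hours column was used, since no off time bears that name. The tables were scaled separately: after 1 factor per table (0.949 at 72 h and 0.947 at 96 h, relative to 48 h), 99.94% and 99.96% of the on values above 0 agreed within 0.1%. Levels are on the scale of the 48 h table, so comparisons of off levels across times rest on that step. Among genes under 0.15 FPKM in both libraries, the commonest ratio of off to on FPKM, taken as the worth of 1 read, was 0.873, 0.964 and 0.843 at 48 h, 72 h and 96 h. The off libraries would then be deeper by 1.145, 1.04 and 1.19 times, but the last rests on 2.27% of those genes, and total depth is unknown.

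Changes used a pseudocount of 1 FPKM, and a gene counted as higher or lower at 2-fold if either library reached 1 FPKM. No test was run: each group has 1 library, and the members were chosen on this contrast. The 10 members and the 14 companion lists (187 entries, some of them older symbols of 1 gene, giving 181 rows) were chosen with earlier results of these data known. Named from a list were genes reaching 5 FPKM and at least 2-fold changed one way at all 3 times, at most 4 per list; other names are said to be chosen for their role or after their values were seen. Older symbols were matched through the RefSeq table. Of the chromosomal neighbours, 1 is not reported here. Motifs and coding windows were searched with Python 3.11.15, pandas 2.3.3, NumPy 2.4.6 and Biopython 1.88, and figures were drawn with matplotlib 3.10.9. The code for scaling and for log2 changes was tested on known changes put into the real on values. That check did not cover the motif and coding window searches.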

Additional observations from a re-analysis of the deposited data

Results flagged for a closer look

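Epx lay on opposite sides of the on library at different times, below it at 48 h (log2 change -0.32) and above it at 96 h (1.07), a difference of 1.40. With 1 library at each time the difference was not tested.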

How the results depend on the processing

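No member passing 2-fold changed direction under any setting, but this outcome was fixed in advance. A pseudocount cannot turn a direction, and the scale factors and centring shifts were too small to turn a 2-fold change. The number of members at least 2-fold lower was 2 at 72 h and 2 at 96 h with a pseudocount of 5 FPKM, since Prss34 then had log2 changes of -0.99 and -0.93 and Ms4a2 of -0.41 and -0.34; with a limit of 4-fold 0 members were higher at 48 h and 0 at 96 h. With a limit of 1.5-fold, 1 member was higher at 72 h. The members' median at 48 h was -0.43 with a pseudocount of 0.1 FPKM and -0.0048 with the median change of genes at 5 FPKM in both libraries set to 0, and at 72 h -0.28 and 0.065. Among all measured genes, the lower count at 48 h was 861 with a pseudocount of 0.1 FPKM, 250 with 5 FPKM and 335 after centring, and the higher count 969, 281 and 899. Centring thus moved the 48 h split from 587 higher and 569 lower to mostly higher. A pseudocount of 0.1 FPKM gave 1205 higher at 72 h, and one of 5 FPKM gave 385 higher and 301 lower at 72 h and 446 higher and 470 lower at 96 h. Over all settings, 73 of these counts and medians, 136 member values and 660 list values stayed within limits not listed here. The remaining 20, 44 and 93 moved. These totals do not measure stability, because part of the agreement was fixed in advance. With a pseudocount of 1 FPKM, a 2-fold change needs at least 1 FPKM in the higher library. Removing the filter on low values therefore could not alter any 2-fold count. Bringing values to the scale of the 48 h table could not alter changes at 48 h. Depth is unknown, so values under about 0.5 FPKM, among them Fcer1a, Ear11 off and Ms4a2 off at 72 h and 96 h, may rest on few reads. No paired analysis was possible because each group has 1 library.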
